A study of Oryctolagus cuniculus with 4 samples.

Results

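The genes described here encode the enzymes that build glycosaminoglycan chains and related glycans. They were chosen by name: genes whose symbol starts with CHST, CHSY, CHPF, CSGALNACT, XYLT, B3GAT, B3GALT, B4GALT, EXTL, HS2ST, HS3ST, HS6ST, NDST or GALNT, or is EXT1, EXT2, UGDH, UST or DSE. Of 20294 genes in the table, 65 met this rule. Their levels were not used to choose them. RNA was sequenced from the semitendinosus tendon, a hamstring tendon, of 4 female New Zealand White rabbits, all 193 days old. The 4 tendons, 1 from each animal, form a single group, called tendons 1 to 4 as in the labels, and no group was given for comparison. The sample labels call them intact and their source autografts, and the series title speaks of allografts. They had been scraped free of surface muscle, frozen and ground whole, so each value is a mixture over all cells of the tissue.

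Glycosaminoglycans are long sugar chains made in the Golgi on the core proteins of proteoglycans. A short linkage sugar is first built on the core protein, and then chondroitin or heparan polymerases extend the chain, an epimerase turns chondroitin into dermatan, and sulfotransferases add sulfate groups at set positions. Dermatan and chondroitin sulfate chains on decorin and its relatives are characteristic of tendon, where they sit between collagen fibrils. The same name families also hold enzymes of mucin-type O-glycans, which begin with N-acetylgalactosamine on serine or threonine, and of the outer sugars of N-glycans and glycolipids.

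The labelled tissue was checked against its markers. All 6 tenocyte markers with an entry (TNMD, MKX, THBS4, FMOD, COL1A1 and COL1A2) were detected, and SCX, the seventh on the list, had no entry under that symbol. Their summed level was 45924, 35817, 17142 and 19282 TPM (a level corrected for transcript length, with an equal total per tendon) in tendons 1 to 4. Markers of skeletal muscle summed to between 7445 TPM in tendon 1 and 29504 TPM in tendon 2, with 8 of 8 detected. Adipocyte markers summed to 247 TPM in tendon 1 and 1028 TPM in tendon 4, and macrophage markers to between 67.7 and 204 TPM. Summed cartilage markers ran the other way, from 881 TPM in tendon 1 to 300.4 TPM in tendon 4. Of these, COL11A2 and ACAN were highest in tendon 1 and lowest in tendon 4. COL2A1 and MATN3 were lowest in tendon 3, and SOX9 and COL9A1 were highest there. Depth was between 19759696 and 30646052 estimated counts per tendon, so that 3 counts, the limit that a count of 0 allows, equal 0.0979 to 0.152 CPM (counts scaled to the same library total, without length correction), which covers counting error only.

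Most of the enzyme genes were expressed, and a few of them carried much of the total. A mean of at least 1 TPM, the level called detected here, was reached by 50 of the 65 genes (76.9%). The same level was reached by 63.0% of all genes and by 75.4% of genes that carry a symbol, so the share of the enzyme genes was near that of other named genes. Counts of detected genes by role, given below, stand beside the same shares and rest on few genes each. Together the 65 genes held 0.221%, 0.181%, 0.177% and 0.167% of the TPM of tendons 1 to 4, on average 0.187% ± 0.0238 (SD, n = 4). Tendon 1 stood highest. The 5 highest genes, GALNT15, DSE, CSGALNACT2, CHPF and UGDH, were the only enzyme genes with a mean of 100 TPM or more, and they held 42.8% ± 4.45 of the TPM of all 65. A further 33 genes lay between 11.5 and 53.1 TPM and 12 between 1.12 and 6.52 TPM. Below 1 TPM were 15 genes. CHST13, GALNTL6 and NDST4 had 0 counts in all 4 tendons, and B3GALT5, CHST9, B3GAT1 and HS3ST2 never had more than 2 counts in a tendon. The other 8 of the 15 (CHST4, GALNT13, NDST3, GALNTL5, GALNT3, GALNT8, CHST8 and GALNT6) had means of 0.157 to 0.666 TPM.

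**Figure D1:**
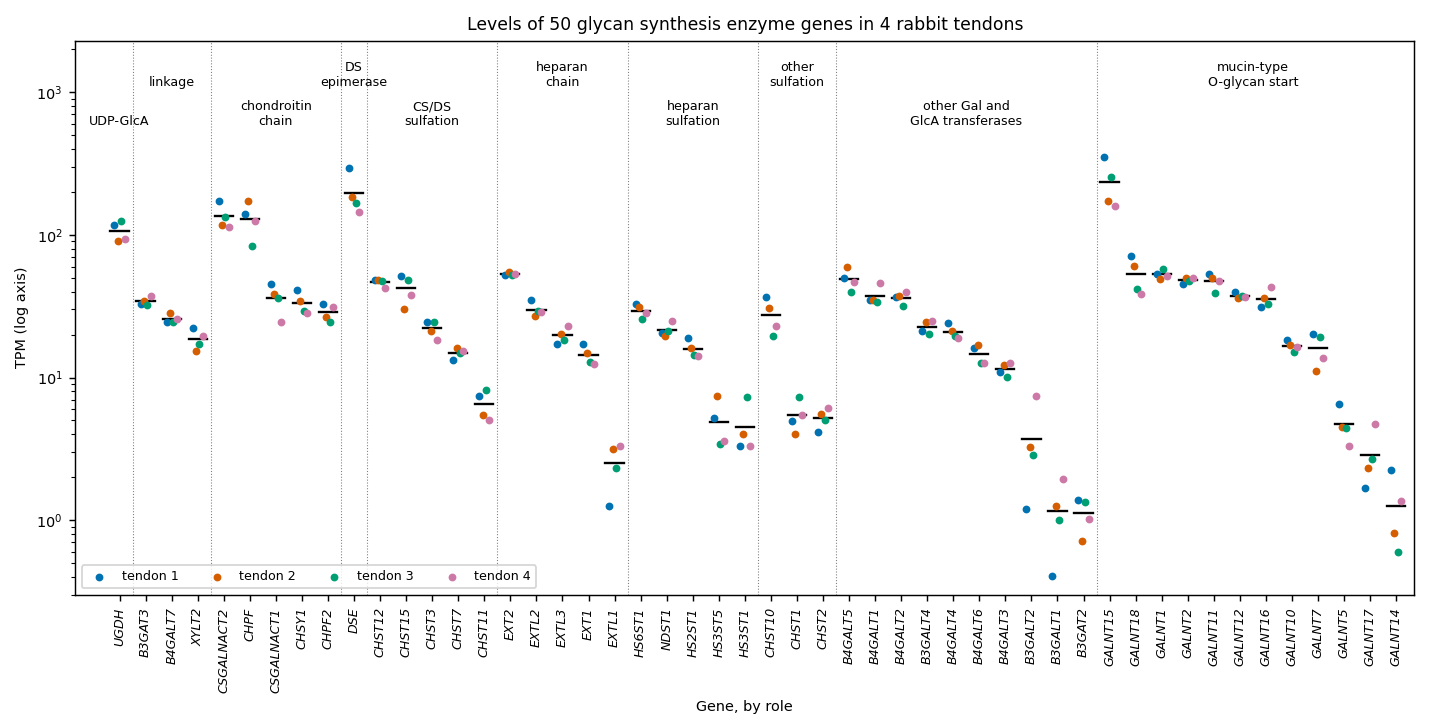
Level of each of the 50 detected enzyme genes in TPM (log axis), grouped by role, with 1 point per tendon and the mean of 4 tendons as a bar. GALNT15 and DSE stood highest, with means of 235 and 198 TPM, and most genes lay between 11.5 and 53.1 TPM.

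The precursor and the linkage region came first in the pathway. UGDH oxidises UDP-glucose to UDP-glucuronic acid, the sugar donor used by both chondroitin and heparan polymerases. Its level was 117, 90.9, 126 and 94.4 TPM in tendons 1 to 4, on average 107 ± 16.9 TPM (SD, n = 4; ENSOCUG00000005531.3, OryCun2.0 chr2:28811522-28929896). Tendon 3 was highest, and tendons 2 and 4 were low and close together, with tendon 2 the lowest in TPM and tendon 4 on the TMM scale used further on. The linkage tetrasaccharide joins every chondroitin, dermatan and heparan chain to its core protein, and its 3 measured enzymes were all detected. XYLT2, a xylosyltransferase that adds the first sugar, stood at 22.3, 15.4, 17.2 and 19.5 TPM. B4GALT7, which adds the first galactose, stood at 24.4, 28.5, 24.6 and 25.9 TPM. B3GAT3, which adds the closing glucuronic acid, stood at 32.9, 34.5, 32.2 and 37.2 TPM. The 3 genes had means of 18.6 ± 2.99, 25.8 ± 1.88 and 34.2 ± 2.24 TPM (SD, n = 4). On the TMM scale their highest tendon was 1.26, 1.36 and 1.21 times the lowest, beside a median of 1.33 for all genes compared there. XYLT1 and B3GALT6 had no entry under those symbols, so the linkage enzymes are covered in part.

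Chondroitin chain enzymes were led by CSGALNACT2 and CHPF. CSGALNACT2, an N-acetylgalactosaminyltransferase that starts and extends chondroitin chains, had 174, 118, 134 and 113 TPM in tendons 1 to 4, on average 135 ± 27.4 TPM (SD, n = 4; ENSOCUG00000005305.3, scaffold GL018805, 413583 to 445687). It was highest in tendon 1, and tendons 2 to 4 lay within 113 to 134 TPM. CHPF, a partner of the chondroitin polymerase CHSY1, had 141, 173, 83.1 and 125 TPM, a mean of 130 ± 37.3 TPM (ENSOCUG00000011348.3, OryCun2.0 chr7:160730821-160734922). Here tendon 2 was highest and tendon 3 lowest. The order of CSGALNACT2 and CHPF was not the same in every animal: CSGALNACT2 was the higher of the pair in tendons 1 and 3. The related CSGALNACT1 had 45.5, 38.2, 35.9 and 24.5 TPM, and was lowest in tendon 4. CHSY1 had 41.3, 34.5, 29.4 and 28.2 TPM. CHPF2, a second CHPF-type gene, had 32.8, 26.7, 24.5 and 31.1 TPM. All 5 genes were detected and together took 19.4% ± 1.73 of the TPM of the 65 enzyme genes (SD, n = 4).

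Ratios within a tendon were compared for 12 pairs of genes or roles, out of 19 listed. The other 7 each lacked an entry for 1 gene (XYLT1, B3GALT6, CHSY3, CHST14, UST, NDST2 or HS6ST2). The log2 ratios were tested against 0 with an exact permutation test that flips their signs (two-sided), whose smallest p with 4 tendons is 0.13, so none could pass 0.05. For 10 of the 12 ratios all 4 tendons lay on the same side of equality, each with p = 0.13 by this exact permutation test and 0.15 after Benjamini-Hochberg adjustment over the 12. CSGALNACT1 stood at 0.262, 0.323, 0.268 and 0.216 of the CSGALNACT2 level, a mean log2 ratio of -1.92 ± 0.24 (SD, n = 4). CHPF exceeded CHPF2 by 4.28, 6.47, 3.39 and 4.02 times (log2 ratio 2.14 ± 0.40). CHPF also exceeded CHSY1, by 3.41, 5.02, 2.83 and 4.44 times (log2 ratio 1.94 ± 0.37). Thus 1 gene of each of these 3 pairs led in every animal.

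DSE, the epimerase that turns glucuronic into iduronic acid and so makes dermatan from chondroitin, was the second-highest enzyme gene. Its level was 294, 185, 169 and 146 TPM in tendons 1 to 4, on average 198 ± 65.7 TPM (SD, n = 4; ENSOCUG00000007344.3, OryCun2.0 chr12:104562074-104604153). Among all 20294 genes it held rank 646. Tendon 1 stood above the other 3, which lay within 146 to 185 TPM. Its relative DSEL, which carries the same activity and lies outside the name rule, had 99.1, 71.9, 73.9 and 81.2 TPM, a mean of 81.5 ± 12.4 TPM. DSEL was also highest in tendon 1, though its tendons lay closer together.

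Sulfotransferases of chondroitin and dermatan had moderate levels, and 5 of the 6 genes were detected. CHST12, which sulfates chondroitin at position 4 of N-acetylgalactosamine, led with 48.4, 48.6, 47.5 and 42.1 TPM. CHST15, which adds a further sulfate at position 6 of a residue already sulfated at position 4, had 51.9, 30.4, 48.4 and 37.8 TPM. CHST3, a chondroitin 6-sulfotransferase, had 24.5, 21.1, 24.6 and 18.2 TPM. CHST12 lay within 42.1 to 48.6 TPM and was lowest in tendon 4, and CHST15 was higher in tendons 1 and 3 than in tendons 2 and 4. CHST7, the other 6-sulfotransferase, had 14.9 ± 1.22 TPM, and CHST11, another 4-sulfotransferase, had 6.52 ± 1.54 TPM (SD, n = 4). CHST11 was below CHST12 in every tendon, at 0.153, 0.112, 0.173 and 0.119 of its level (log2 ratio -2.87 ± 0.30). CHST11 was also below CHST3, at 0.302, 0.257, 0.334 and 0.276 of its level (log2 ratio -1.78 ± 0.16). The 4-sulfotransferase CHST13 had no count. CHST14, the dermatan 4-sulfotransferase, and UST, the uronyl 2-sulfotransferase, had no entry under those symbols.

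Heparan chain enzymes had a lower summed level than those of chondroitin, although EXT2 stood above 3 of the 5 chondroitin chain genes. EXT2, a subunit of the heparan polymerase, had 52.2, 54.7, 52.0 and 52.9 TPM, a mean of 52.9 ± 1.23 TPM (SD, n = 4). Its tendons lay close together in TPM, and on the TMM scale the highest was 1.21 times the lowest. EXT1, the other subunit, had 17.2, 14.9, 12.8 and 12.3 TPM. The EXT1 level was 0.330, 0.273, 0.246 and 0.234 of EXT2, a log2 ratio of -1.90 ± 0.22, so that EXT2 was the higher subunit in every animal. The EXT1 transcript in the table has 5731 bases and that of EXT2 2193, and in CPM, which is not corrected for length, the pair had 44.6 and 63.4 CPM. EXTL3, which adds the N-acetylglucosamine that commits a chain to heparan, had 17.3, 20.3, 18.2 and 23.1 TPM. EXTL2, a related N-acetylglucosaminyltransferase, had 35.1, 27.2, 29.1 and 28.6 TPM, which was 2.03, 1.34, 1.598 and 1.24 times EXTL3 (log2 ratio 0.61 ± 0.32). That order reversed without length correction, where the log2 ratio was -1.37. The EXTL2 model has 822 bases and the EXTL3 model 3245. EXTL1 was low, at 1.25, 3.14, 2.34 and 3.33 TPM.

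Enzymes that sulfate heparan were detected for 5 of 8 genes. HS6ST1, a 6-O-sulfotransferase, had 32.7, 31.1, 25.5 and 28.4 TPM, from a gene model of only 711 bases. NDST1, which swaps acetyl for sulfate on glucosamine and so opens the chain to the later enzymes, had 20.4, 19.7, 21.3 and 24.7 TPM. HS2ST1, the 2-O-sulfotransferase, had 18.9, 16, 14.3 and 14.3 TPM. In every tendon HS2ST1 stood below HS6ST1, at 0.580, 0.514, 0.560 and 0.503 of its level (log2 ratio -0.89 ± 0.10, SD, n = 4). The 3-O-sulfotransferases, which make rare modifications of the chain, were lower: HS3ST5 had 4.89 ± 1.84 TPM and HS3ST1 4.47 ± 1.89 TPM. NDST3 was below 1 TPM, HS3ST2 had at most 2 counts and NDST4 none. NDST2, HS3ST3A1, HS3ST3B1, HS3ST4, HS3ST6, HS6ST2 and HS6ST3 had no entry.

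Summed over genes, the chondroitin side of the pathway stood above the heparan side in transcript level. Summed TPM of the 5 chondroitin chain genes was 3.53, 3.25, 2.68 and 2.68 times that of the 5 heparan chain genes in tendons 1 to 4, a log2 ratio of 1.59 ± 0.20 (SD, n = 4). Without CSGALNACT2 the log2 ratio was 0.91, and the chondroitin sum was still the larger in all 4 tendons, by 2.12, 2.26, 1.51 and 1.74 times. Summed TPM of the chondroitin and dermatan sulfotransferases was 1.79, 1.55, 1.99 and 1.59 times that of the heparan sulfotransferases (log2 ratio 0.78 ± 0.17). This excess was smaller without either leading gene. Without CHST12 the 4 ratios were 1.19, 0.930, 1.33 and 1.02 (log2 ratio 0.15), with tendon 2 below equality, and without CHST15 they were 1.15, 1.16, 1.32 and 1.08 (log2 ratio 0.23). With the highest gene left out on both sides, CHST12 and HS6ST1, they were 1.99, 1.54, 2.07 and 1.65 (log2 ratio 0.85). For chain synthesis, leaving out CSGALNACT2 and EXT2 gave 3.67, 4.15, 2.77 and 3.10 (log2 ratio 1.76). The calculations without single genes were added after the values were seen. The sums cover the genes with an entry, and a sum of transcripts does not measure enzyme activity or chain amount.

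**Figure D2:**
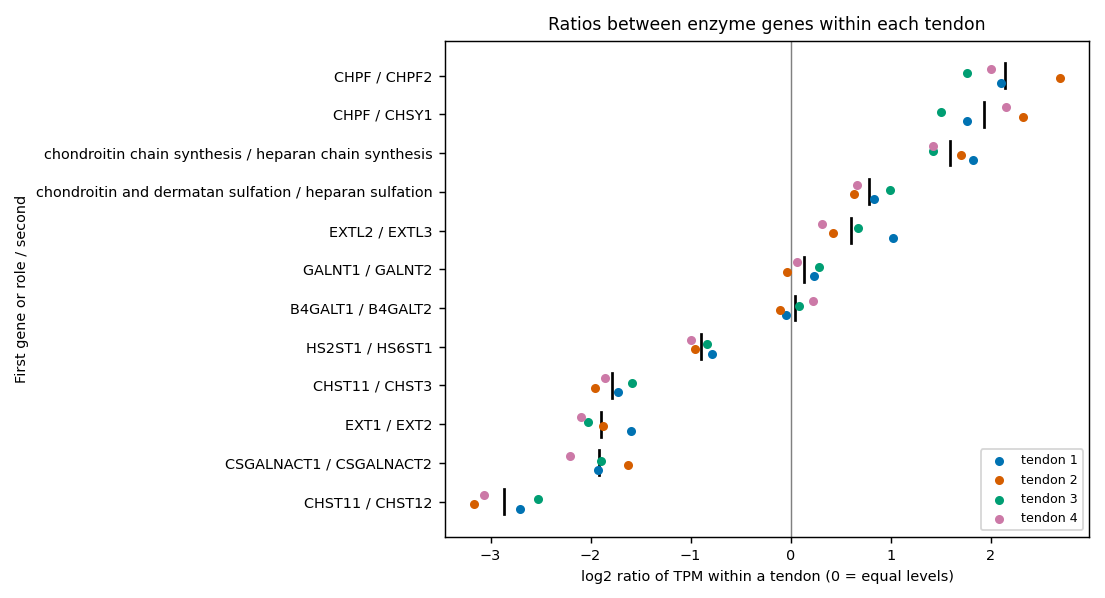
Log2 ratio of TPM for the 12 pairs of genes or roles (0 means equal levels), with 1 point per tendon and the mean as a bar. CHPF exceeded CHPF2 and CHSY1 in all 4 tendons, CHST11 lay below CHST12 in all 4, and B4GALT1 and B4GALT2 lay on both sides of 0.

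Genes for other carbohydrate sulfotransferases had a lower summed level, at 0.00389% of TPM, and 3 of 6 were detected. Those of chondroitin and dermatan took 0.0132% and those of heparan 0.00767%. CHST10, which sulfates the HNK-1 glycan, had 36.4, 30.6, 19.7 and 22.9 TPM, higher in tendons 1 and 2 than in tendons 3 and 4. CHST1, the keratan sulfate galactose 6-sulfotransferase, had 5.45 ± 1.40 TPM and CHST2, an N-acetylglucosamine 6-sulfotransferase, 5.20 ± 0.825 TPM (SD, n = 4). CHST4 had 0.666 ± 0.343 TPM. CHST5 and CHST6, further members of the same enzyme group, had no entry.

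Galactosyl and glucuronyl transferases that serve other glycans took 10.8% ± 1.74 of the TPM of the 65 genes (SD, n = 4), and 10 of 12 were detected. B4GALT5, a lactosylceramide synthase of glycolipid synthesis, led with 49.7, 60, 39.8 and 46.9 TPM. B4GALT1, which adds galactose to N-glycans, had 35.3, 34.7, 33.7 and 46.3 TPM. Tendon 4 was highest for B4GALT1 and the other 3 lay close together. B4GALT2, with the same activity, had 36.4, 37.3, 31.7 and 39.5 TPM. B4GALT1 and B4GALT2 were not distinguished, with ratios of 0.967, 0.932, 1.06 and 1.17 (log2 ratio 0.04 ± 0.15, exact permutation p = 0.75), and the sign of the mean log2 ratio turned when tendon 4 was left out. B3GALT4, which acts on gangliosides, had 22.8 ± 2.37 TPM.

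Genes for the polypeptide N-acetylgalactosaminyltransferases, which start mucin-type O-glycans, formed the largest family, with 18 members of which 12 were detected. GALNT15 had the highest mean TPM of all 65 enzyme genes, at 351, 173, 257 and 161 TPM in tendons 1 to 4, on average 235 ± 88.2 TPM (SD, n = 4; ENSOCUG00000025111.1, OryCun2.0 chr14:2204281-2231628). It held rank 534 of all genes. Tendons 1 and 3 stood above tendons 2 and 4. GALNT15 exceeded DSE in TPM in tendons 1, 3 and 4 but not in tendon 2. Without length correction GALNT15 was not the highest, with a mean of 244 CPM against 426 for CSGALNACT2 and 414 for DSE. The GALNT15 model has 1923 bases, that of CSGALNACT2 5827 and that of DSE 3869. GALNT18 had 70.8, 61.0, 41.8 and 38.8 TPM, with tendons 1 and 2 above tendons 3 and 4. GALNT1 and GALNT2, broadly expressed members of the family, had 53.0 ± 3.89 and 48.2 ± 2.03 TPM. Their ratio was 1.18, 0.978, 1.22 and 1.04 (log2 ratio 0.14 ± 0.15, exact permutation p = 0.25, adjusted p = 0.273), and without length correction it was -1.22 on the log2 scale. The GALNT1 model has 1827 bases and the GALNT2 model 4670. The family took 29.5% ± 2.29 of the TPM of the 65 genes, and GALNT15 alone 12.4% ± 3.29.

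The spread between animals was set against that of all genes. For this, counts were scaled by the trimmed mean of M values (TMM), and the highest tendon was divided by the lowest wherever the mean reached 10 CPM. This filter was passed by 36 of the 65 enzyme genes, and 14 detected genes did not pass it. A range of 2-fold or more was reached by 4 of the 36 (11.1%), against 10% of the 8784 genes that passed the same filter, a share near the background. The median range was 1.37-fold for the enzyme genes and 1.33-fold for all genes. In a bulk sample, fewer cells of a type and less RNA per cell cannot be told apart.

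HS3ST5 had the widest range, with 11.5, 18.8, 7.84 and 8 TMM-normalised CPM in tendons 1 to 4, or 2.40-fold. Tendon 2 was the highest, and without it the range was 1.47-fold. CHPF had 138, 195, 84.6 and 123 CPM on the same scale, or 2.31-fold, again with tendon 2 highest and tendon 3 lowest. Without tendon 2 or tendon 3 its range was 1.63-fold or 1.59-fold. GALNT15 had 353, 199.7, 267 and 162 CPM, or 2.18-fold, and DSE had 593, 430, 352 and 294 CPM, or 2.01-fold. Both were highest in tendon 1 and lowest in tendon 4. Without tendon 1 their ranges were 1.65-fold and 1.46-fold, and without tendon 4 1.77-fold and 1.68-fold. With library totals in place of TMM, GALNT15 had a range of 1.98-fold and DSE of 1.82-fold, and HS3ST5 and CHPF stayed at or above 2-fold. Of the 6 tenocyte markers, 5 (all but TNMD) were higher in tendons 1 and 2 than in tendons 3 and 4, whereas TNMD, tenomodulin, had 158, 169, 31.7 and 187 TPM and was highest in tendon 4. DSE, CHPF and HS3ST5 were also higher in tendons 1 and 2 than in the other 2, and GALNT15 was not, since its tendon 3 lay above tendon 2. Summed cartilage markers had tendons 1 and 2 above tendons 3 and 4 as well. Summed skeletal muscle markers were highest in tendon 2, as were CHPF and HS3ST5. The share of all genes with tendons 1 and 2 above tendons 3 and 4 was not computed. Adipocyte markers were lowest in tendon 1 and highest in tendon 4. The part of other cells in these ranges was not tested.

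Next after these 4 genes came CSGALNACT1, with 43.7, 42.2, 35.7 and 23.6 CPM (1.85-fold), and GALNT18, with 99.3, 98.4, 60.7 and 54.5 CPM (1.82-fold). Both fell short of 2-fold and were lowest in tendon 4. The steadiest genes were GALNT12, a mucin-type initiator, with 36.3, 37.8, 35.6 and 33.4 CPM (1.13-fold), GALNT1 (1.16-fold) and B3GAT3, EXT2 and NDST1, whose ranges were 1.21-fold, 1.21-fold and 1.22-fold.

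**Figure D3:**
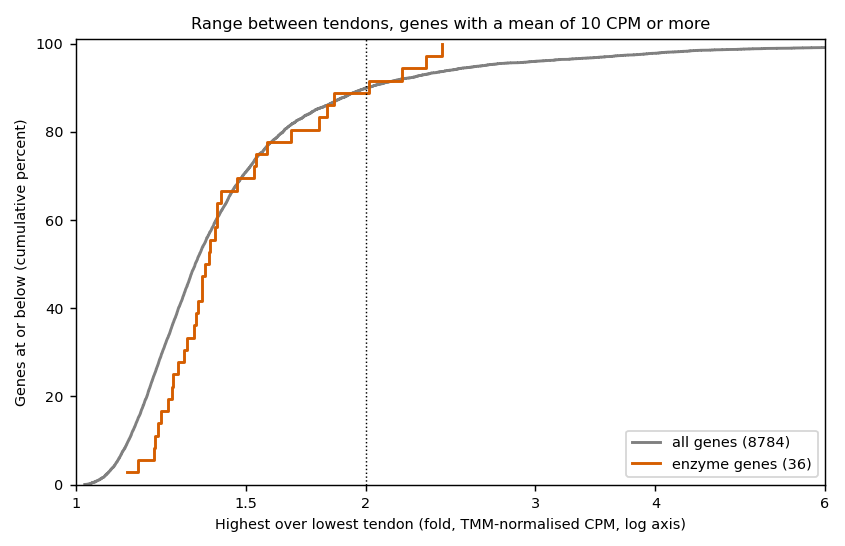
Cumulative percent of genes (vertical axis) at or below a given ratio of highest to lowest tendon (horizontal, log axis, TMM-normalised CPM), for 36 enzyme genes and all 8784 genes that average 10 CPM or more. Both lines run close together, and 4 enzyme genes lie at or beyond the dotted line at 2-fold.

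The tendon in which a gene was highest or lowest was counted over the same 36 genes. Tendons 1 to 4 were highest for 12, 17, 4 and 3 enzyme genes (33.3%, 47.2%, 11.1% and 8.33%). Of all genes, 33.7%, 34.0%, 15.2% and 17.1% were highest in tendons 1 to 4. Tendons 1 to 4 were lowest for 8, 3, 11 and 14 enzyme genes (22.2%, 8.33%, 30.6% and 38.9%), against 30.1%, 19.9%, 17.3% and 32.7% of all genes. Thus 29 of 36 enzyme genes (80.6%) had their highest value in tendon 1 or 2, as had 67.7% of all genes. Among the 5 chondroitin chain genes, 4 were highest in tendon 1 and CHPF in tendon 2. These counts depend on the scaling. With library totals in place of TMM, tendon 2 was highest for 10 genes and tendon 4 for 9, and the median gene shifted by -0.05, -0.11, 0.05 and 0.10 on the log2 scale in tendons 1 to 4.

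**Figure D4:**
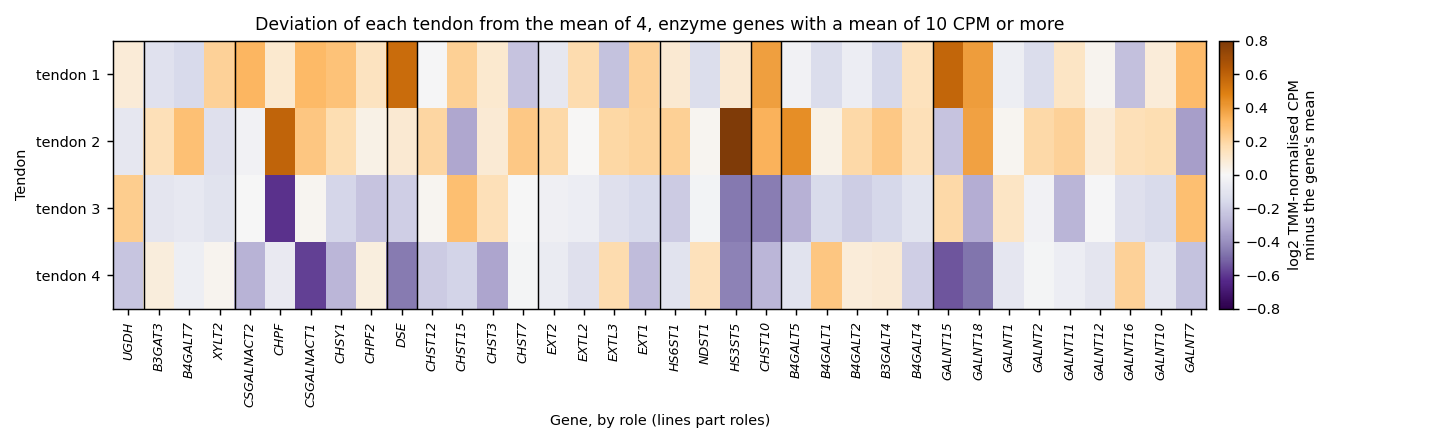
Deviation of each tendon (rows) from the gene's mean in log2 TMM-normalised CPM (colour) for the 36 enzyme genes that average 10 CPM or more (columns, by role). Tendon 2 was highest for 17 genes and tendon 1 for 12, and tendon 4 was lowest for 14.

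Of the 14 detected enzyme genes under the filter of 10 CPM, 6 had a range of 2-fold or more in TMM-normalised CPM: B3GALT2, B3GALT1, GALNT14, EXTL1, GALNT17 and HS3ST1. Without any filter, 38.2% of all genes with a count reached 2-fold, beside 33.9% of the enzyme genes. The same share for all detected genes under the filter was not computed. These 6 low genes entered no count of ranges above and were singled out after their values were seen. B3GALT2, a galactosyltransferase, had the widest range, with 47, 219, 174 and 494 counts in tendons 1 to 4, or 2.46, 7.69, 6.14 and 15.4 TMM-normalised CPM, a 6.26-fold range. B3GALT1, with 4, 21, 15 and 32 counts, had a 4.76-fold range, and GALNT17, with 30, 71, 74 and 143 counts, a 2.84-fold range. These 3 were lowest in tendon 1 and highest in tendon 4. EXTL1 had 66, 284, 189 and 296 counts, or 3.45, 9.97, 6.67 and 9.21 TMM-normalised CPM (2.89-fold), and was lowest in tendon 1, with tendons 2 and 4 close together. GALNT14 went the other way, with 47, 29, 19 and 48 counts (3.66-fold), highest in tendon 1 and lowest in tendon 3. HS3ST1, with 31, 64, 104 and 52 counts (2.27-fold), was highest in tendon 3. All 8 skeletal muscle markers with an entry except TNNT3 were lowest in tendon 1, and they did not share a highest tendon: MYH2 had 0.548, 0.922, 1.01 and 240.3 TPM and TNNT3 0.613, 0.968, 0.400 and 233 TPM, while ACTA1 had 2925, 13182, 6218 and 7864 TPM. The part of muscle or fat in these values was not tested.

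Annotated transcripts were compared for the 4 enzyme genes with more than 1 in the table. CHSY1 came mainly from its transcript of 3398 bases, which held 94.0%, 84.5%, 92.0% and 93.1% of the gene's TPM in tendons 1 to 4. Tendon 2 was the lowest, and the rest of its CHSY1 TPM was assigned to the transcript of 2160 bases. CHST15 was divided between a transcript of 3524 bases, with 65.3% ± 5.78 of its TPM (SD, n = 4), and one of 1689 bases. The linkage enzyme gene B4GALT7 was divided nearly evenly, with 44.3% ± 3.64 on 1211 bases and 55.7% ± 3.64 on 984 bases. CHPF2 was read almost wholly as its transcript of 2316 bases. These shares are estimates for overlapping transcripts and not direct counts.

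**Figure D5:**
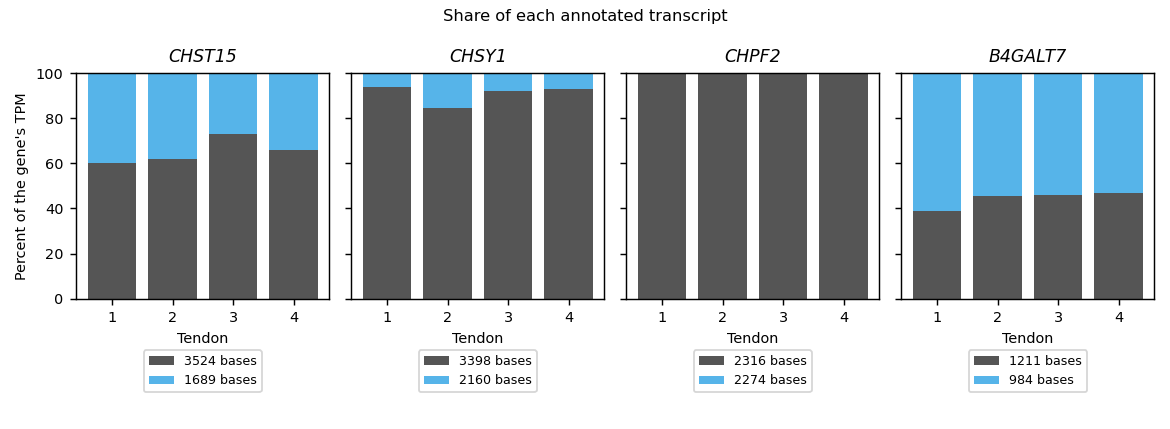
Percent of the gene's TPM (vertical axis) given to each of the annotated transcripts of CHST15, CHSY1, CHPF2 and B4GALT7 in tendons 1 to 4 (bars), with lengths in the legends. The transcript of 1211 bases of B4GALT7 held 38.9% in tendon 1 and 45.6% to 46.7% in tendons 2 to 4.

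Other genes of the pathway, on a list of 81 outside the name rule, had 63 entries. Of these, 58 were detected, beside 75.4% of genes with a symbol. Of the 49 that passed the filter of 10 CPM, 11 had a range of 2-fold or more, beside 10% of all genes, and without tendon 4 the number was 6, beside 6.79% of all genes. The list and its classes were chosen with earlier results known and were not tested against other genes. For sugar nucleotide supply, all 12 genes with an entry were detected, beside 75.4% of genes with a symbol. None of the 9 that passed the filter reached 2-fold, a number too small to set against the 10% of all genes. UGP2, which makes the UDP-glucose used by UGDH, stood at 165 ± 16.5 TPM (SD, n = 4). Sulfate donor genes were all detected (6 of 6, beside the same 75.4%), led by PAPSS1, which makes the sulfate donor PAPS, at 53.0 ± 5.71 TPM. The sulfate transporter gene SLC26A2 was the only one of these 6 with a range over 2-fold, at 10.6, 6.15, 14.1 and 6.13 TPM (2.37-fold in TMM-normalised CPM). Its tendons 1 and 3 were above tendons 2 and 4, and the share of all genes with that order was not computed.

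Among other enzymes that act on the chains, 2 of the 6 that passed the filter had a range of 2-fold or more, beside 10% of all genes. PXYLP1, a phosphatase of the linkage xylose, had 49.0, 39.4, 30.2 and 22.4 TPM (2.19-fold in TMM-normalised CPM), and SULF2, which removes 6-O-sulfate from heparan sulfate, had 30.8, 34.0, 53.1 and 25.7 TPM (2.13-fold). SULF2 was highest in tendon 3. SULF1, with the same activity, had 48.1 ± 10.8 TPM (SD, n = 4). The 8 lysosomal genes of chain breakdown with an entry were all detected, beside 75.4% of genes with a symbol. None of the 8 reached 2-fold, again too few genes to set against the 10% of all genes. Hyaluronan is made at the cell membrane without a core protein, and its synthase gene HAS2 was low, at 3.31, 4.27, 8.76 and 7.12 TPM, higher in tendons 3 and 4 than in tendons 1 and 2 (2.74-fold in TMM-normalised CPM).

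Summed over genes, the listed core proteins of chondroitin, dermatan or keratan sulfate far exceeded the enzymes in level, while those of heparan sulfate did not. The excess came mainly from DCN, PRELP and FMOD, with means of 14507, 6986 and 5987 TPM. Some others, such as ACAN at 59.7 TPM, lay within the enzyme levels. The 18 listed core proteins of chondroitin, dermatan or keratan sulfate took 3.03% ± 0.823 of TPM (SD, n = 4), and 6 of the 12 that passed the filter had a range of 2-fold or more, beside 10% of all genes. DCN, the dermatan sulfate proteoglycan decorin, had 19666, 13584, 15151 and 9626 TPM. Like DSE and GALNT15 it was highest in tendon 1 and lowest in tendon 4, with a 2.04-fold range in TMM-normalised CPM. Of all genes that passed the filter, 33.7% were highest in tendon 1 and 32.7% lowest in tendon 4, and the share with both was not computed. Enzyme genes of other roles, such as EXT1 and GALNT18, had the same highest and lowest tendons. PRELP and FMOD, small leucine-rich proteoglycans, had 2.42-fold and 3.55-fold ranges and were lowest in tendon 4. LUM, KERA and OMD, singled out after their values were seen, were the other 3, with ranges of 9.73-fold, 4.34-fold and 3.29-fold. LUM was lowest in tendon 1 and highest in tendon 4, the reverse of DSE and DCN. So was BGN, biglycan, with 1025, 1070, 1179 and 1398 TMM-normalised CPM in tendons 1 to 4. KERA, OGN and ACAN had their highest and lowest tendons as DCN had. Heparan sulfate core proteins took 0.114% ± 0.0267 of TPM, below the 0.187% of the 65 enzyme genes. SDC4, a membrane syndecan, was the only one of 7 with a range over 2-fold, beside 10% of all genes, at 618, 479, 226 and 270 TPM. With 4 tendons, no correlation between enzymes and core proteins was computed.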

How the data were processed

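Poly(A) RNA libraries from 4 tendons were analysed. The authors deposited 1 table of estimated counts, 1 line per transcript, with gene symbol, Ensembl identifier, coordinates and length, per the file headers. The submitters' processing notes name the rabbit build OryCun2.0 and the programs bcl2fastq, FastQC and kallisto 0.42.4, with no role or order. Any filter, and whether strand was used, is not given in the sources used here. No pair of tendons agreed within counting noise. The p-values take the 4 tendons as units and do not measure the spread between them. They equal 0.13 whenever all 4 log2 ratios share a sign, whatever their spread.

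TPM were computed from the estimated counts and annotated transcript lengths and summed per gene. Effective lengths were not used, and gene models differ in how much untranslated sequence they hold (39 of 69 enzyme transcripts, 56.5%, have a length that is a multiple of 3), which moves TPM between genes but not between tendons. Counts rounded to whole numbers were scaled by TMM in edgeR 4.0.16 (R 4.3.3). A tendon far from the other 3 was looked for with Dixon's ratio (critical value 0.829). The calculations were tested on simulated data. Other steps ran in Python 3.11.15 with scipy 1.17.1, numpy 2.4.6 and pandas 2.3.3.

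The members, roles, ratios, pathway list and markers were chosen with earlier results of these data known. Named genes were up to 4 per role by mean TPM, those of the ratios, the 6 widest and 3 narrowest ranges, those with more than 1 transcript, any behind a count of 5 or fewer, and up to 3 per pathway class. Others were added to account for each enzyme gene. Alternatives were CPM, other denominators, pseudocounts, thresholds and filters, DESeq2 1.42.0 size factors, library totals, and each tendon left out in turn. A symbol without an entry says nothing of expression. Protein and promoter sequences were not used here. The level of 1 pathway gene that the rule would name is not reported here.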

Additional observations from a re-analysis of the deposited data

Results flagged for a closer look

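Dixon's ratio was computed for 73 values in the 4 tendons, and 1 was past its critical value, where chance alone gives about 3.65. This was the TPM of B4GALT1, a galactosyltransferase of N-glycans, with a ratio of 0.874: tendon 4 had 46.3 TPM and the other 3 lay between 33.7 and 35.3 TPM. On TMM-normalised CPM the ratio was 0.561, below the critical value. Chance flags about 1 in 20 such groups.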

How the results depend on the processing

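The count of detected enzyme genes (41 to 53 under 8 alternatives, 50 reported) and of detected pathway genes (58 under all 5) stayed within 1.5 times. As percent of CPM the enzyme genes took 0.270%, and by role linkage 0.00617%, chondroitin chain 0.0691%, epimerase 0.0414%, chondroitin and dermatan sulfation 0.0185%, heparan chain 0.0164%, heparan sulfation 0.0130%, other galactosyl and glucuronyl 0.0242% and mucin-type 0.0681%. Among genes with a symbol only the values were 0.251% for all, 0.0144% for UGDH, 0.0106% linkage, 0.0489% chondroitin chain, 0.0267% epimerase, 0.0178% chondroitin and dermatan sulfation, 0.0161% heparan chain, 0.0103% heparan sulfation, 0.00524% other sulfation, 0.0267% other galactosyl and glucuronyl and 0.0745% mucin-type. Without mitochondrially encoded genes they were 0.00888% linkage, 0.0149% chondroitin and dermatan sulfation, 0.0135% heparan chain, 0.00865% heparan sulfation and 0.0224% other galactosyl and glucuronyl.

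In CPM the log2 ratio of EXTL2 to EXTL3 reversed to -1.37 and that of GALNT1 to GALNT2 to -1.22. With each tendon left out, that of B4GALT1 to B4GALT2 ran from -0.0217 (without tendon 4) to 0.0882. The other 9 ratios kept their direction under CPM, an added 0.1 TPM and each tendon left out; with 3 tendons the smallest exact permutation p is 0.25.

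The count of enzyme genes with a range of 2-fold or more was 4; it was 2 with library totals (DSE 1.82-fold, GALNT15 1.98-fold), 21 without a filter, 11 at 1.5-fold, 0 at 3-fold, and 2 to 3 with each tendon left out. Of all genes, 10.98%, 38.2%, 29.2% and 3.97% were called under the first 4 of these. With tendons 1 to 4 left out in turn, 5.56%, 5.71%, 8.33% and 5.56% of enzyme genes were called, beside 5.31%, 8.03%, 8.83% and 6.79% of all genes. With library totals, tendon 2 was highest for 10 enzyme genes and lowest for 6, and tendon 4 highest for 9. At a mean of 20 CPM, tendon 2 was highest for 9, tendon 1 lowest for 5 and tendon 3 lowest for 7; fewer genes were tested there. The cause of the other changes was not tested. With 1 library per animal and 4 animals, no difference between tendons can be tested for a gene, and genes under 10 CPM are limited by depth. No paired analysis was possible because there is 1 group.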

Other observations

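Of the 65 enzyme genes, 56 lay on a chromosome of OryCun2.0 and 9 on scaffolds with no chromosome. GALNT11 and GALNTL5 lay side by side on chromosome 13, 33639 bases apart, with 0 genes of the table between them. Their levels differed widely: GALNT11 had 47.4 ± 6.16 TPM (SD, n = 4) and GALNTL5 0.384 ± 0.224 TPM. GALNT7 and GALNTL6 lay 221210 bases apart on chromosome 2, with 1 gene between them, and GALNT7 was detected in all 4 tendons while GALNTL6 had 0 counts. No other pair of the same name family was examined further, and both pairs were singled out after their values were seen.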
